A study of Mus musculus with 8 samples.

Results

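Autophagy delivers cytoplasm and organelles to the lysosome, and 37 genes of this pathway were examined out of 21000 protein-coding genes in the mouse. The members were listed by name: 5 genes of the initiating Ulk kinase complex, 5 of the complex that marks the nucleation site with a phosphoinositide, 6 that bring lipid and membrane, 11 of the conjugation machinery, 5 Atg8-family proteins, 2 cargo receptors and 3 lysosomal genes. For each member, ATAC-seq peaks were taken at the promoter, taken as 2 kb to either side of each start of a curated RefSeq transcript (GRCm38), and in the rest of the gene body.

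A double membrane grows around its cargo, closes as an autophagosome and fuses with a lysosome, where acid hydrolases degrade the content. Starvation and mTOR set the pace through the Ulk kinases, and the transcription factor Tfeb switches on lysosomal and autophagy genes through E-box elements in their promoters. The lens depends on organelle removal for transparency: fiber cells lose nuclei, mitochondria and endoplasmic reticulum as they mature, and autophagy also runs in the epithelium that covers the front of the lens.

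CD1 mice gave the tissue, either the lens epithelium or the fibers, and its open chromatin was profiled in the embryo at E14.5 and just after birth at P0.5, with 2 ATAC-seq libraries in each of the 4 groups and 8 in all. Neither an allele nor a treatment is named for any group. The tissues were separated by microdissection, and several lenses were pooled for each library, so a library mixes animals and every cell layer of the dissected piece. Each group was represented by 1 list of peaks called on its 2 libraries together, which leaves no spread between libraries, and no test across replicates was possible. Every difference given here is a difference between 2 lists. In bulk tissue, a promoter that is open in fewer cells and a promoter that is less open in each cell cannot be told apart.

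At E14.5 the epithelium list held 100003 peaks and the fiber list 123743, at P0.5 they held 58592 and 62995, and their median widths were 226, 298, 209 and 185 bp in that order. Of the peaks, 87.9, 80.5, 86.7 and 48.8% had a q value under 0.001. The P0.5 fiber list had the smallest share of such peaks and the fewest distinct values of fold enrichment. All 6 fiber markers had a promoter peak in every list (Mip, Lim2, Bfsp1, Bfsp2, Crybb1 and Crygd), and so had all 4 epithelial markers (Foxe3, Pax6, Cdh1 and Pdgfra). Neither corneal marker had one in any list (Krt12 and Krt5). Of 4 vessel markers (Pecam1, Cdh5, Kdr and Tie1), 3, 3, 2 and 2 had a promoter peak in the order of the lists above. For 3 blood markers (Ptprc, Csf1r and Hbb-bs) the counts were 2, 1, 1 and 0. Of the periocular mesenchyme, Foxc1 and Twist1 had promoter peaks in every list, with gene ranks of 29.0 to 38.0 for Foxc1 and 49.0 to 57 for Twist1. Of the retina, Atoh7 had one in every list, with a gene rank of 21.3 in P0.5 fibers, and Rax in every list but that of P0.5 fibers. The part of other cells in the values below was not tested.

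The promoter of Lamp1, the most abundant glycoprotein of the lysosomal membrane together with Lamp2, stood furthest apart between P0.5 fibers and P0.5 epithelium, and it carries the E-box letters CACGTG 4 times. The 250 bases before its start site are shown here beside those of Atg3 and Atg5, a conjugating enzyme and a conjugate partner whose promoters hold the same letters and stood high in all 4 lists. Atg14 and Atg7 hold the letters too and stood lower, with gene ranks of 27.1 to 44.3 and of 43.2 to 59.6. A relation between these letters and promoter rank was not tested. Capitals mark CACGTG, searched on both strands, which for this palindrome are the same; the sequences are from RefSeq (GRCm38.p6) and run 5′ to 3′ on the strand of the gene.
Lamp1 (chr8:13158911-13159160, plus strand): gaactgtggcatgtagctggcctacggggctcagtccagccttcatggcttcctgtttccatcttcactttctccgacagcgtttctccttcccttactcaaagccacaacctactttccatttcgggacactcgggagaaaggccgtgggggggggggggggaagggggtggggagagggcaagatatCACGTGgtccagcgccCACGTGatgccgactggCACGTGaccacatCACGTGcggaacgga
Atg3 (chr16:45158579-45158828, plus strand): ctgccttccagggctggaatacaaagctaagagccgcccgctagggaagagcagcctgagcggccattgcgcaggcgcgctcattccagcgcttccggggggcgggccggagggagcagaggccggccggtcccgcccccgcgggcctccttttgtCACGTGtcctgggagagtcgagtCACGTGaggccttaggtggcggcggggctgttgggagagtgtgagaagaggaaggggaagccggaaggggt
Atg5 (chr10:44268089-44268338, plus strand): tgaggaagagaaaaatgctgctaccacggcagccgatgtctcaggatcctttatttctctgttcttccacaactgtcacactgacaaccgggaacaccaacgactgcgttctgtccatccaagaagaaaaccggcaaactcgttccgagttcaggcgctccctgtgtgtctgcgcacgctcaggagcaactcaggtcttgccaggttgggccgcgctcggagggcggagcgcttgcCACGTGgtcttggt
The first bases of the 4 copies in Lamp1 lay 61, 45, 28 and 15 bases before the start site, so all of them fell in the last 61 bases before it. Of 20488 RefSeq promoters (250 bases before to 50 after the start), 1645 (8.03%) held CACGTG at least once, 159 (0.776%) at least 2 times and 5 (0.0244%) at least 4 times. The letters TCACGTGA, the core of the element that Tfeb binds, were found in 1 of the 35 member promoters (Atg3) and in 1.27% of all promoters. In the 200 bp around the promoter summit they were found for 2 members, Atg3 and Lamp1, in every list, against 1.34 to 1.46% of all genes with a promoter peak. CACGTG itself was in 5 (14.3%) of the member promoters, in Atg14, Atg3, Atg5, Atg7 and Lamp1. These matches are letters in a window and were not tested as binding sites.

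Promoters of the 31 members found in the RefSeq table (35 promoters, since some members have several) had a median GC content of 60.7%, against 57% over all promoters. Their median ratio of observed to expected CpG was 0.702, against 0.588. The promoters of 3 members with contrasting peaks are shown by their CpG, in capitals: Ulk1, which stood among the top genes of 3 lists, Pik3r4, which stood highest in P0.5 epithelium, and Atg9b, which had no peak close to its start site in most lists.
Ulk1 (chr5:110810082-110810331, minus strand): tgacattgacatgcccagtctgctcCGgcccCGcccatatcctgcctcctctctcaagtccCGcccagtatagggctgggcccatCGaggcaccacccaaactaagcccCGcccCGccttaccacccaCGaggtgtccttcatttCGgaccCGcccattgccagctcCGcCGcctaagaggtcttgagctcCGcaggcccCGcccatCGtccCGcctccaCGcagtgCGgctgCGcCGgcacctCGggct
Pik3r4 (chr9:105642745-105642994, plus strand): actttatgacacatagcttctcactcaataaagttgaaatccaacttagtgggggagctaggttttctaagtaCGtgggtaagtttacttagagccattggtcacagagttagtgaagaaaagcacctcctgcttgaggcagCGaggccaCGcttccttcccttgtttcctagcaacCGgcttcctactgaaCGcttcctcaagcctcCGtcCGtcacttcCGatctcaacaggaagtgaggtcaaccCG
Atg9b (chr5:24392144-24392393, minus strand): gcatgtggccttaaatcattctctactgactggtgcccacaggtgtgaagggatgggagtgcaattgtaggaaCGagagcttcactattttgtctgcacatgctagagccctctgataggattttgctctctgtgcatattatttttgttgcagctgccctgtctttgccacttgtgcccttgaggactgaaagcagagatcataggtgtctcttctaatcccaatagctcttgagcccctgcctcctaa
Ulk1 had 20 CpG in these 250 bases, Pik3r4 had 9 and Atg9b had 1. These 3 were picked for contrast, and CpG content was not compared with gene rank over all members. The ratio of observed to expected CpG was 1.08 in Ulk2, at gene ranks of 16.0 to 42.0. In Atg9a it was 0.702, at gene ranks of 1.21 to 5.42.

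Every one of the 37 members had a promoter peak in all 4 lists. Over all 21000 genes the share was 70.3% (epithelium) and 71.2% (fibers) at E14.5, and 67% (epithelium) and 64.6% (fibers) at P0.5. Consequently 0 members had a promoter peak in fibers alone or in epithelium alone at E14.5, against 2.5 and 1.59% of all genes. At P0.5 the member counts were again 0 and 0, against 3.51% of all genes in fibers alone and 5.84% in epithelium alone. Between stages no member was gained or lost: the shares over all genes were 1% at P0.5 alone and 4.32% at E14.5 alone in epithelium, and 1.71 and 8.28% in fibers. The summit of the strongest promoter peak lay within 500 bp of a start for 34 and 34 members at E14.5 and 35 and 35 at P0.5, with 85.5 and 85.2% of all genes with a promoter peak at E14.5 and 88.3 and 84.4% at P0.5. Here and below, series of 4 values give epithelium and then fibers of E14.5, followed by epithelium and then fibers of P0.5.

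Atg9b, one of the 2 mammalian Atg9 lipid scramblases, had its summit beyond 500 bp in all 4 lists. Ulk2, Sqstm1 and Atg12 lay beyond it in some lists. Its strongest promoter peak had its summit at −2584 bases from the start site in E14.5 epithelium and at −2513 bases in the fibers of that stage, outside the window that the peak's edge reached. At P0.5 the summits lay at −1407 and −1188 bases in peaks of 172 and 150 bp. With a window of 1 kb, Atg9b lacked a promoter peak in every list but that of E14.5 epithelium, and with q under 0.001 it lacked one in P0.5 fibers. No other member lost its promoter call under any of the alternatives tried.

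The start sites of 9 members lie within 2 kb of that of another gene, so their peaks cannot be assigned to the member alone. The closest pairs were Atg4b and Thap4, 67 bases apart, Gabarapl1 and 1700101I11Rik, 92 bases, and Atg2b and Gskip, 111 bases. Atg9a and Ankzf1 start 150 bases apart, Atg3 and Slc35a5 156, Atg4a and Psmd10 196, Atg13 and Harbi1 260, Atg16l1 and Gm33517 265, and Atg12 and Ap3s1 297.

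Promoter strength was read as a rank inside each list, because fold enrichment, the ratio of signal to background at the top of a peak, depends on the depth of the pooled libraries. All 21000 genes were ordered by the highest fold enrichment of their promoter peaks, and gene rank is the percentage of genes ordered above, with 0 at the top. The median gene rank of the members was 26.3, 22.5, 24.7 and 23.4 in the order above, against medians of 35.0, 35.5, 32.8 and 30.2 over all genes with a promoter peak. A gene rank under 50 was found for 37, 36, 34 and 32 members. About 50% of all genes have such a rank by construction, and the share is larger among genes with a promoter peak, as every member had. The largest group of genes that shared 1 fold enrichment made up 0.876, 0.719, 1.29 and 3.72% of all genes, so gene ranks in P0.5 fibers move in the coarsest steps.

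**Figure D1:**
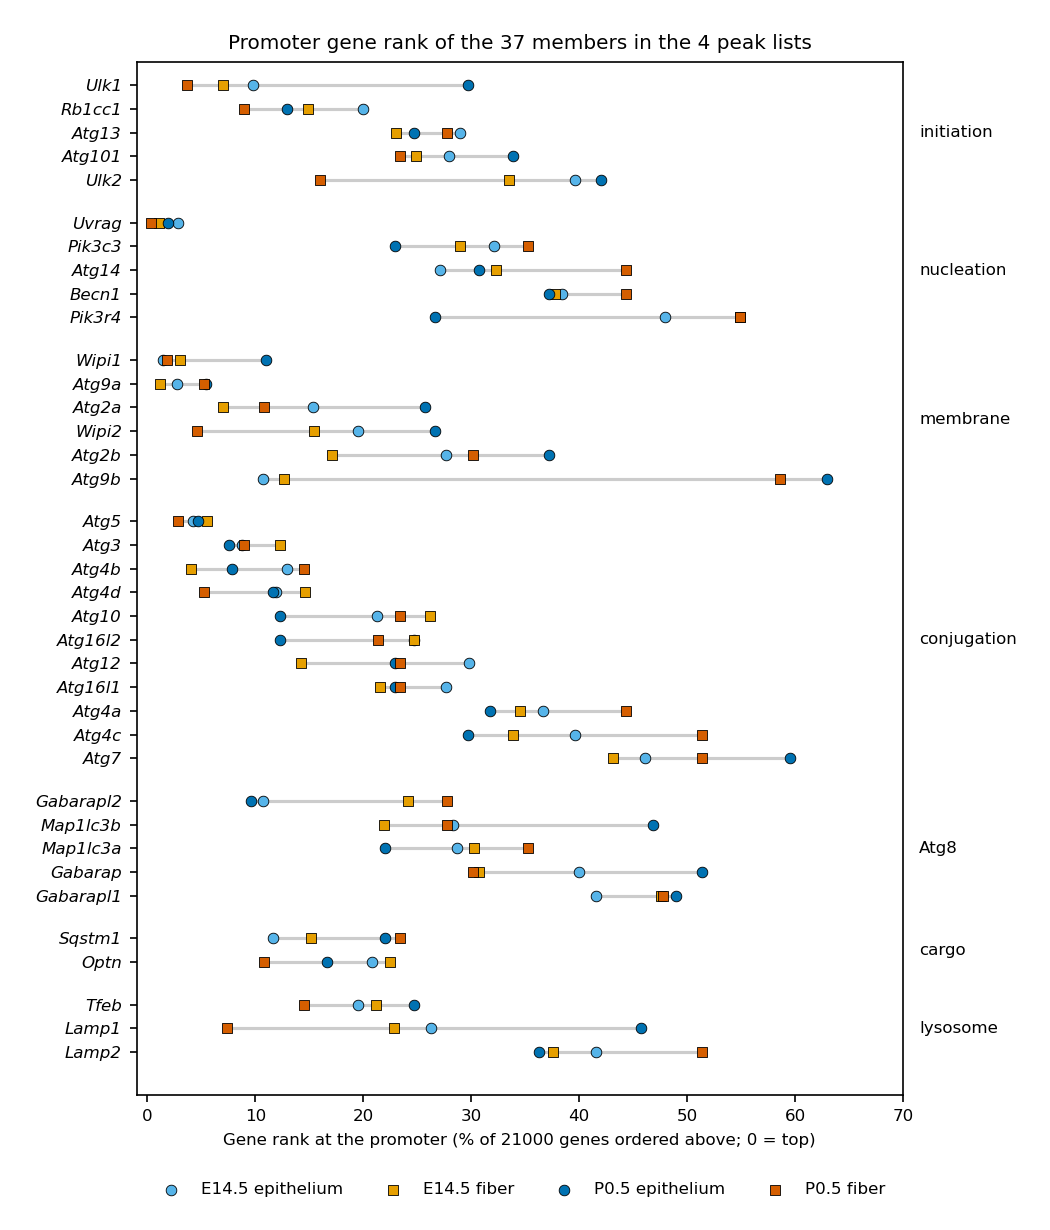
Gene rank at the promoter (x axis, percentage of the 21000 genes ordered above, 0 at the top) of each member (rows, grouped by role) in each of the 4 lists (circles epithelium, squares fibers, light colors E14.5, dark colors P0.5), with a gray line from the lowest to the highest value. Uvrag, Wipi1, Atg9a and Atg5 stay within 11 of the top, while Atg9b spans 10.7 to 63.0 and Lamp1 7.34 to 45.7; for Pik3r4 the squares of both fiber lists coincide.

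The kinase complex that starts autophagy comprises the kinases Ulk1 and Ulk2 and their partners Atg13, Atg101 and Rb1cc1 (the scaffold FIP200). Ulk1 (chr5:110784489-110810081, minus strand) had gene ranks of 9.77, 7.06, 29.7 and 3.71. It stood near the top in 3 lists and lower in P0.5 epithelium. Its close relative Ulk2 (chr11:61775598-61855092, minus strand) had gene ranks of 39.6, 33.5, 42.0 and 16.0, and so stood highest in P0.5 fibers too. The scaffold Rb1cc1 ranged from 8.91 in P0.5 fibers to 20.02 in E14.5 epithelium. Atg13 and Atg101, the bridging subunits, varied little, between 23.1 and 29.0 and between 23.4 and 33.9.

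The nucleation complex joins the lipid kinase Pik3c3 (Vps34) and its anchor Pik3r4 (Vps15) with Becn1 and either Atg14 or Uvrag. Uvrag held the highest promoter rank of all members in 3 of the 4 lists, with gene ranks of 2.87, 1.09, 1.91 and 0.362 and a summit between 73 and 212 bases before the start site in every list. In E14.5 epithelium, Wipi1 and Atg9a stood above it. Pik3r4 (chr9:105642995-105687655, plus strand) had gene ranks of 48.0, 54.9, 26.7 and 54.9, so that the P0.5 epithelium stood apart from the other 3 lists, in the opposite direction to Ulk1. Pik3c3 also stood highest in P0.5 epithelium, less far apart, with 32.1, 28.9, 23.0 and 35.3. Becn1 was even, from 37.2 to 44.3, and Atg14, the subunit that directs the complex to the forming autophagosome, ran from 27.1 to 44.3, with P0.5 fibers the lowest-standing list for both.

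Among the genes that feed membrane to the autophagosome, the phosphoinositide readers Wipi1 and Wipi2 recruit the conjugation machinery, Atg2a and Atg2b transfer lipids, and Atg9a and Atg9b flip them between leaflets. Atg9a stood at 2.72, 1.21, 5.42 and 5.26, and Wipi1 at 1.47, 3.01, 11 and 1.79. Both belonged to the top of every list. Wipi2 (chr5:142629584-142669372, plus strand) had gene ranks of 19.5, 15.4, 26.7 and 4.62. Its order of the lists was that of Ulk1, with P0.5 fibers first and P0.5 epithelium last. Atg2a, with 15.3, 7.06, 25.8 and 10.8, and Atg2b, with 27.7, 17.1, 37.2 and 30.2, also had P0.5 epithelium last, but E14.5 fibers first.

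The conjugation machinery attaches Atg12 to Atg5 and lipid to the Atg8 proteins, through the E1-like Atg7, the E2-like Atg3 and Atg10, the Atg16l1 and Atg16l2 scaffolds and the Atg4 proteases. Atg5 stood at 4.25, 5.49, 4.66 and 2.87 and Atg3 at 8.74, 12.3, 7.52 and 8.91, which made them, with Uvrag and Atg9a, the members that changed least between lists. The E1-like Atg7 lay at the other end, with 46.1, 43.2, 59.6 and 51.4. Its single promoter peak in each list sat at the upstream start site, and the RefSeq promoter of Atg7 that holds CACGTG belongs to a downstream start. Of the 4 proteases, Atg4b and Atg4d stood between 4.05 and 14.6 in all lists, and Atg4a and Atg4c between 29.7 and 51.4. Atg4c (chr4:99193934-99259787, plus strand) had gene ranks of 39.6, 33.9, 29.7 and 51.4, with P0.5 fibers lowest. Atg10 and Atg16l2 both stood highest in P0.5 epithelium, at 12.3, and Atg12 in E14.5 fibers, at 14.2.

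Atg8-family proteins coat the growing membrane and bind cargo receptors. Map1lc3b (LC3B), the family member most used as a marker of autophagosomes, had gene ranks of 28.4, 21.9, 46.8 and 27.7, with P0.5 epithelium last. Gabarap (chr11:69991370-69994949, plus strand) also had P0.5 epithelium last, with 40.0, 30.7, 51.4 and 30.2. Gabarapl2 did not: it stood highest in the epithelium of both stages, with 10.7 and 9.63, and lower in fibers, with 24.1 and 27.7. Map1lc3a had the same direction at P0.5, with 22.0 in epithelium and 35.3 in fibers, and little difference at E14.5, with 28.7 and 30.3. Gabarapl1 lay between 41.5 and 49.0 everywhere.

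The cargo receptors Sqstm1 (p62) and Optn, which link ubiquitin-tagged cargo to the Atg8 proteins, stood between 10.8 and 23.4 in all lists. Tfeb stood at 19.5, 21.2, 24.7 and 14.54. Lamp1 (chr8:13159161-13175338, plus strand) had gene ranks of 26.3, 22.9, 45.7 and 7.34. The fold enrichments behind these ranks were 41.8, 57.2, 11.5 and 15.3, at summits 45 to 120 bases after the start site, just downstream of the E-box letters shown above. Lamp2, the related glycoprotein that also takes part in fusion and chaperone-mediated autophagy, had gene ranks of 41.5, 37.6, 36.3 and 51.4. At P0.5 it stood nearer the top in epithelium, the reverse of Lamp1, and at E14.5 both stood nearer the top in fibers.

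A difference of at least 20 points of gene rank between 2 lists was counted as a move, higher where the gene stood nearer the top in the first list named. In E14.5 fibers against E14.5 epithelium 0 members were higher and 0 lower, where 0.295 and 0.395% of all genes were. The largest differences were those of Atg12, nearer the top in fibers by 15.6 points (29.8 against 14.2), and of Gabarapl2, nearer the top in epithelium by 13.4 points.

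In P0.5 fibers against P0.5 epithelium, 5 members were higher (Lamp1, Ulk1, Ulk2, Wipi2 and Gabarap), with 3.9% of all genes. The number lower was 2 (Pik3r4 and Atg4c), with 3.77% of all genes. The differences, fibers minus epithelium, were −38.4 points for Lamp1, −25.99 for Ulk1, −25.98 for Ulk2, −22.0 for Wipi2 and −21.2 for Gabarap. They were 28.2 points for Pik3r4 and 21.7 for Atg4c. Over the 12836 genes with a peak in both P0.5 lists, the 5th to 95th percentiles were −21.1 to 20.1 points. The shares of all genes, here and in the other comparisons, include genes without a promoter peak, whereas every member had one. All 5 of the higher members also stood nearer the top in fibers at E14.5, with differences of −2.71 points in Ulk1 to −9.29 in Gabarap, inside the 5th to 95th percentiles of all genes (−10.2 to 11.6). At E14.5, 22 of the 37 members and 50.8% of all genes with a peak in both lists stood nearer the top in fibers. Map1lc3b lay just outside the threshold, at −19.1 points, and Gabarapl2 at 18.1 points. The same 7 members passed with a window of 1 kb and with the summit required inside the window. The counts depended on the threshold: 9 members were higher and 9 lower at 10 points, with 15.7 and 12.7% of all genes, and 1 (Lamp1) and 0 at 30 points, with 0.571 and 0.819%. Over all members the median difference was −1.22 points, and over all genes with a peak in both lists it was −1.31 points.

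**Figure D2:**
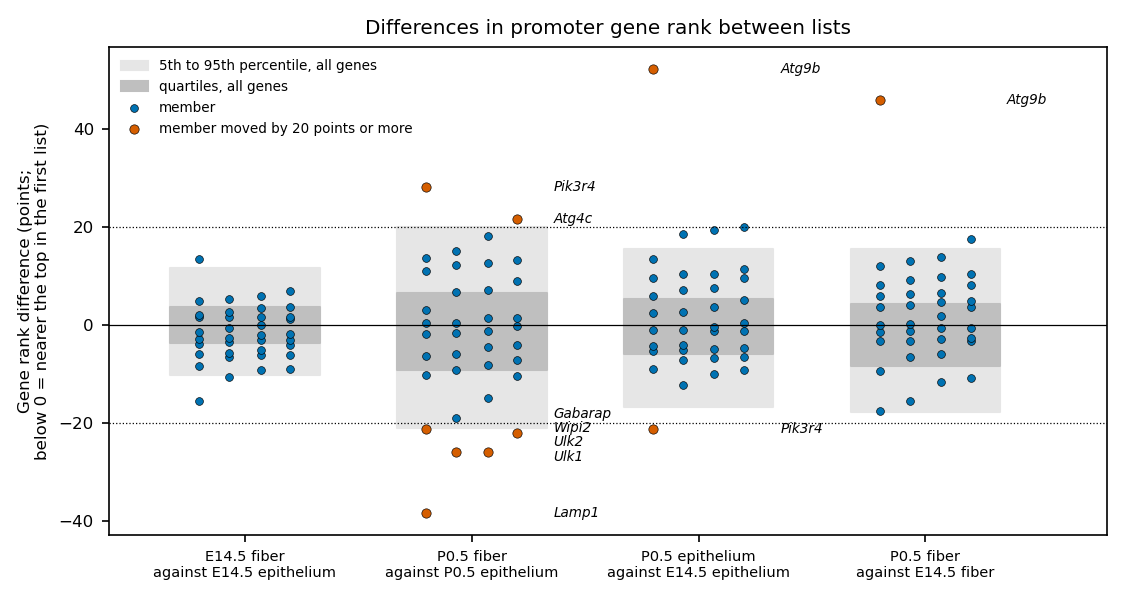
Difference in gene rank between 2 lists (y axis, points, below 0 where the gene stood nearer the top in the first list) for the 37 members (dots) in the 4 comparisons, over the quartiles (dark gray) and the 5th to 95th percentiles (light gray) of all genes with a promoter peak in both lists. Lamp1 at −38.4 and Pik3r4 at 28.2 lie outermost at P0.5, and Atg9b at 52.3 and 45.9 between stages, while all members stay within 15.6 points at E14.5.

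Between stages few members moved. In P0.5 against E14.5 epithelium, 1 member was higher (Pik3r4, by 21.3 points, from 48.0 to 26.7), with 1.95% of all genes, and 1 was lower (Atg9b), with 1.32%. Just outside the threshold were Ulk1, lower at P0.5 by 19.9 points, Lamp1 by 19.5 and Map1lc3b by 18.5. In P0.5 against E14.5 fibers 0 members were higher, with 2.03% of all genes, and 1 was lower (Atg9b), with 1.99%. The gene ranks of Atg9b were 10.7, 12.7, 63.0 and 58.6, but 54.7, 55.4, 62.8 and 58.4 when the summit had to lie in the window. The peak behind the move of Atg9b had its summit outside the window at E14.5 and reached into it with its edge. In fibers, Ulk2 and Lamp1 stood nearer the top at P0.5 by 17.5 and 15.5 points, and Atg4c further from it by 17.5.

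Promoter peaks of the members were narrower in the median at P0.5 than at E14.5, as were those of all genes. The median width of the widest promoter peak was 1315, 1655, 773 and 680 bp over members and 999, 1269, 717 and 578 bp over all genes with a peak. Widths ranged over members, at E14.5, from 419 to 2594 bp in epithelium and from 445 to 3388 in fibers, and at P0.5 from 172 to 1835 and from 150 to 1700. Tfeb had the widest peak in the first 3 lists and Atg4b in the fourth.

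A change of at least 2-fold in this width was counted. In E14.5 fibers against epithelium 0 members were wider and 0 narrower, with 10.3 and 0.596% of all genes. The ratio ran from 0.745 in Pik3r4 to 1.88 in Wipi2, and its median was 1.22 in members and 1.23 in all genes. In P0.5 fibers against P0.5 epithelium 0 were wider and 3 narrower (Atg13, Pik3r4 and Atg4c), with 2.61 and 14.48% of all genes. The median ratio was 0.876 in members and 0.841 in all genes. Pik3r4 and Atg4c were the members that also stood lower in gene rank, with peaks of 423 against 173 bp and of 536 against 226 bp. Of the 5 members that stood higher in P0.5 fibers, Gabarap had a wider peak there, 1134 against 580 bp. The other 4 had narrower ones: 551 against 695 bp in Lamp1, 671 against 785 in Ulk1, 1068 against 1233 in Ulk2 and 680 against 770 in Wipi2.

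**Figure D3:**
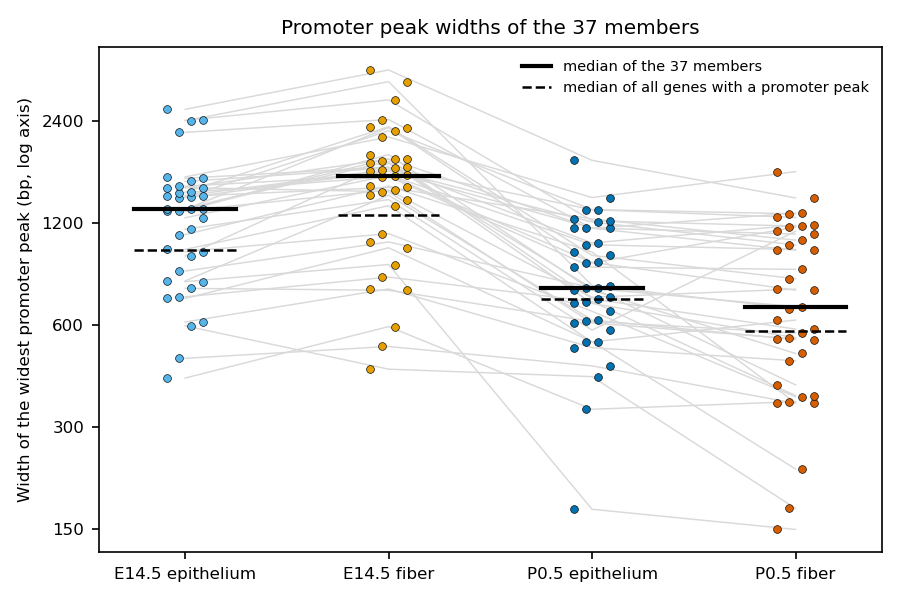
Width of the widest promoter peak (y axis, bp, log axis) of the 37 members in each list (dots, gray lines join a gene across the lists), with the median of the members (solid bar) and of all genes with a promoter peak (dashed bar). The members' median goes from 1315 and 1655 bp at E14.5 to 773 and 680 bp at P0.5, above the median of all genes in each list.

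In P0.5 against E14.5 epithelium 0 members were wider and 4 narrower (Atg9b, Ulk1, Atg5 and Map1lc3b), with 0.325 and 17.6% of all genes. The median ratio was 0.709 in members and 0.742 in all genes. In P0.5 against E14.5 fibers 0 were wider and 19 narrower, with 0.174 and 57.9% of all genes. The median ratio was 0.460 in members and 0.454 in all genes, and single ratios ran from 0.166 in Atg9b and 0.214 in Ulk1 to 0.807 in Gabarap. The P0.5 lists held fewer and narrower peaks, and the part of list depth in these widths was not tested. Ulk1 shows that width and rank can part: its peak measured 3130 bp in E14.5 fibers and 671 bp in P0.5 fibers, at gene ranks of 7.06 and 3.71.

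Outside the promoters, 23, 28, 15 and 21 members had at least 1 peak in the gene body, against 45, 50.2, 33 and 38.5% of all genes. With equal numbers of peaks taken from each list, the members numbered 15, 20, 15 and 20, with 34.4, 36.8, 33.0 and 37.04% of all genes. With q under 0.001 they numbered 22, 26, 13 and 13, with 42.2, 46.1, 29.5 and 23.2% of all genes, so that fibers and epithelium had the same number at P0.5. The lists held 114, 211, 39 and 80 such peaks, which covered 26553, 80318, 6855 and 15511 bp of the members. Gene length enters these counts, since a longer gene can hold more peaks. Only peaks over a member's own promoter were left out, so a peak at the start of another gene inside a member would count. Merged over the lists, they made 302 regions in 31 members, of which 258 had their summit in an intron, 29 in a coding exon, 13 in a UTR exon and 2 outside the gene. Places are those of the summit, and 30 of the 258 regions with a summit in an intron reached into an exon. Atg7 held 59 regions, Uvrag 41, Atg10 29, Tfeb 23, Ulk1 16 and Wipi2 15.

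The E14.5 fiber list alone held 129 of the 302 regions (42.7%), against 34.6% of 102835 gene body regions over all genes. The longest list was thus also the one with most regions of its own. P0.5 fibers alone held 44 (14.6%, against 13.9%), E14.5 epithelium alone 34 (11.3%, against 12.5%) and P0.5 epithelium alone 6 (1.99%, against 4.52%). Fibers of both stages and neither epithelium held 11 (3.64%, against 3.02%), and 9 (2.98%, against 4.74%) were in all 4 lists. Of the regions in E14.5 fibers alone, 28 lay in Atg7, 20 in Uvrag, 12 in Atg10 and 9 in Wipi2.

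**Figure D4:**
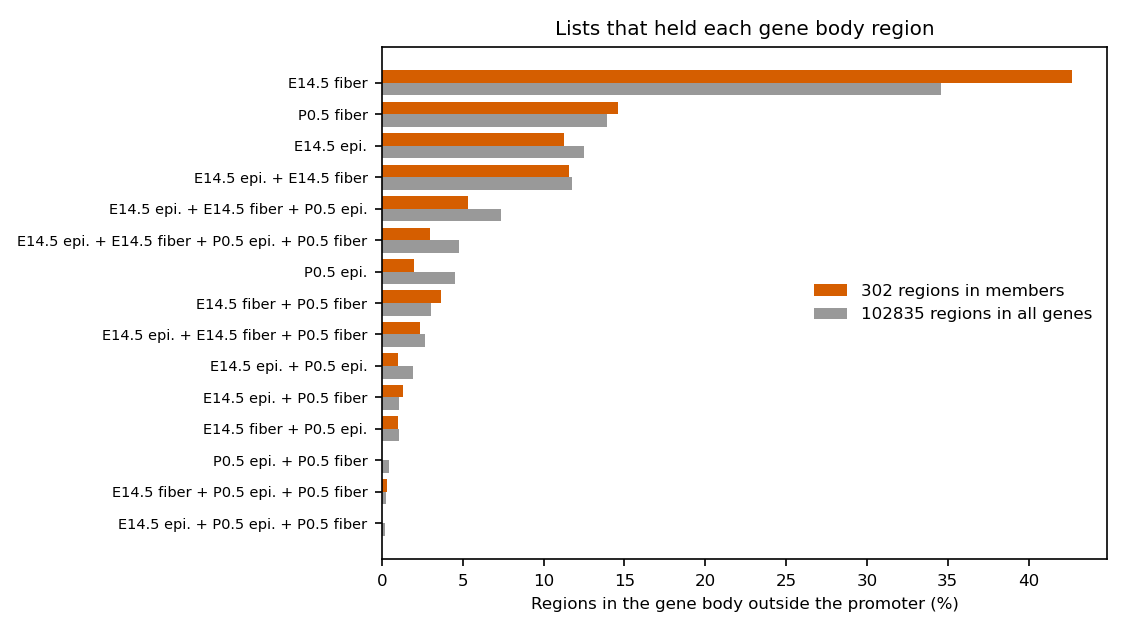
Share (x axis, %) of gene body regions outside the promoter by the combination of lists that held them (rows), for 302 regions in members (orange) and 102835 in all genes (gray). Regions of E14.5 fibers alone make up 42.7% in members and 34.6% in all genes, and regions in all 4 lists 2.98 and 4.74%.

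The strongest member regions called in fibers and not in epithelium at E14.5 had their summits in introns of Atg7 (chr6:114676147-114676462, in the upper 12.1% of the list), Wipi2 (chr5:142660733-142661287, upper 12.9%) and Map1lc3b (chr8:121595742-121596727, upper 13.3%). The Map1lc3b region, 986 bp wide with its summit 5483 bases after the start site, was the only one of these also in the P0.5 fiber list, in the upper 34.7%, and it was in neither epithelium list. The 200 bases around its summit in the E14.5 fiber list are shown because this region was found in fibers of both stages. The last 36 of them belong to a coding exon. In P0.5 fibers the gene body peaks of Map1lc3b covered 381 bp, and whether they reach the bases shown was not examined. Capitals mark TGCTGA on either strand, the core of the element bound by Maf factors, which act in fiber differentiation; 30.1% of the member regions and 24.7% of 101230 gene body regions of all genes held these letters in windows of this length.
Map1lc3b gene body region (chr8:121595822-121596021, plus strand): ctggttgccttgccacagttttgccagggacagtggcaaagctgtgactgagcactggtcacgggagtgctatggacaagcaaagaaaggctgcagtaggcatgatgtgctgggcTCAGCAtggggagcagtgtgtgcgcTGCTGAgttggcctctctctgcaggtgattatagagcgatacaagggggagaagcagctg
At P0.5, the strongest regions in fibers and not in epithelium were an intron region of Atg2a (chr19:6251503-6251662, upper 15.7%), a coding exon region of Atg7 (chr6:114677806-114678106, upper 21.4%) and an intron region of Tfeb (chr17:47760320-47760438, upper 21.4%). The Atg7 region was also in the E14.5 epithelium list.

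In the opposite direction, the strongest regions in E14.5 epithelium and not in E14.5 fibers were in introns of Atg10 (chr13:91093114-91093411, upper 22.5%), Atg2a (chr19:6260429-6260693, upper 38.1%) and Atg7 (chr6:114790215-114790322, upper 46.8%). The Atg2a region was also in the P0.5 fiber list. At P0.5 those in epithelium and not in fibers were just past the end of Tfeb (chr17:47792385-47792894, upper 39.5%) and in introns of Atg10 (chr13:90967577-90967853, upper 24.9%) and Uvrag (chr7:99073866-99074247, upper 39.5%). All 3 were also in both E14.5 lists.

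Between stages, epithelium at E14.5 had intron regions of Wipi1 (chr11:109585174-109585531, upper 17.8%), Atg5 (chr10:44355269-44355532, upper 18.9%) and Ulk1 (chr5:110788654-110789105, upper 19.5%) that the P0.5 list lacked. The P0.5 epithelium in turn had weaker regions of Rb1cc1 (chr1:6272367-6272503, upper 58.5%), Uvrag (chr7:98904726-98904917, upper 58.5%) and Tfeb (chr17:47791356-47791521, upper 75.7%) that the E14.5 list lacked, and those of Rb1cc1 and Uvrag were in E14.5 fibers. In fibers, intron regions of Pik3c3 (upper 9.05%), Atg13 (chr2:91689469-91689770, upper 9.23%) and Uvrag (chr7:98888787-98889587, upper 9.34%) were in the E14.5 list and not in that of P0.5, and all 3 were in E14.5 epithelium too. The regions of Atg2a, Atg7 and Tfeb given above for P0.5 fibers were also the strongest of those absent from E14.5 fibers.

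**Figure D5:**
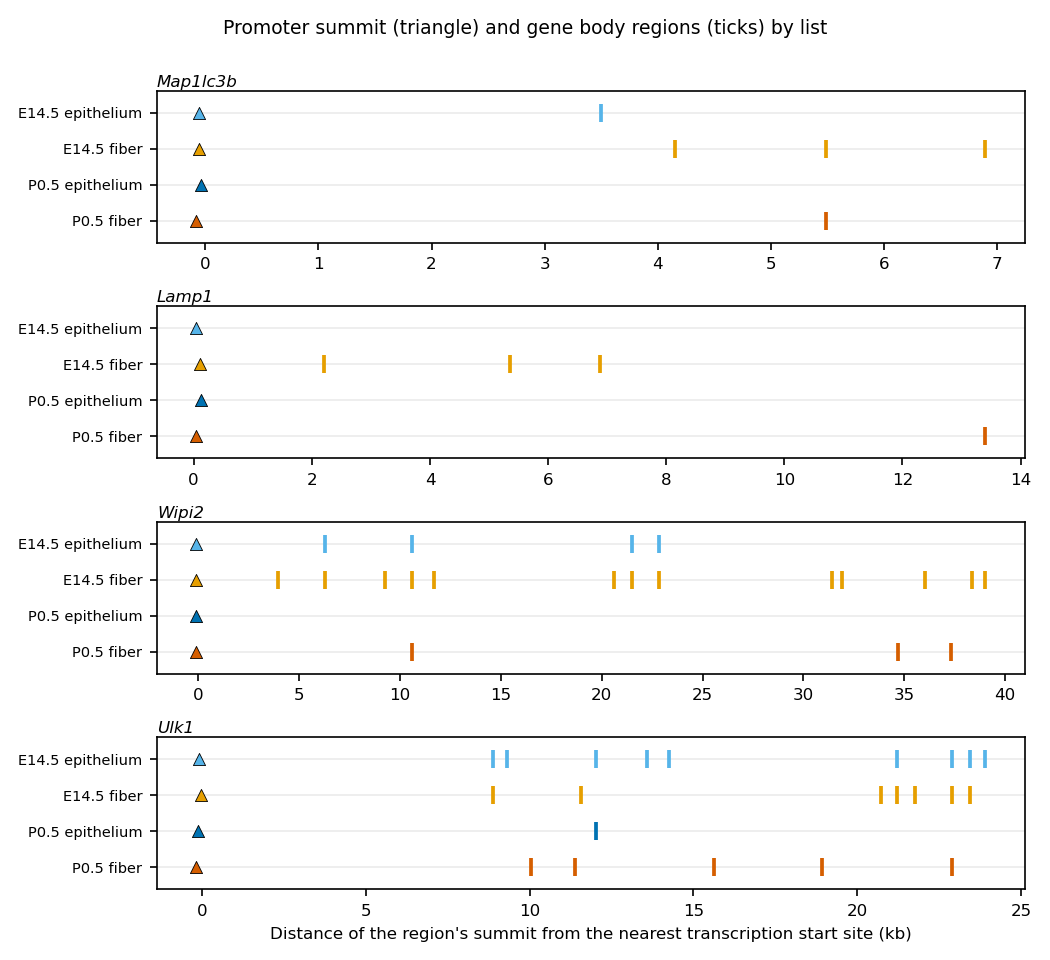
Distance (x axis, kb) from the nearest start site to the summit of the strongest promoter peak (triangles) and to the summits of merged gene body regions (ticks) of Map1lc3b, Lamp1, Wipi2 and Ulk1, with 1 row per list. The promoter summits lie near 0 in all 4 lists, P0.5 epithelium has no gene body region in 3 of the genes, and the Map1lc3b region 5483 bases after the start is in both fiber lists.

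Lamp1 had 3 gene body peaks in E14.5 fibers, 1 in P0.5 fibers and 0 in either epithelium. Wipi2 had 4, 13, 0 and 3, and Map1lc3b 1, 3, 0 and 2. Ulk1 had 10, 7, 1 and 5, with more in epithelium than in fibers at E14.5. Ulk2, Atg3, Atg101, Becn1, Map1lc3a and Pik3r4 had none in any list.

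A wider set of 125 genes of the same system showed the same near-complete set of promoter peaks. The number with a promoter peak was 123, 123, 123 and 120, against the shares of all genes given above. Those without one were the cysteine proteases Ctsk and Ctss, which lacked it in all lists, and, in P0.5 fibers alone, Gusb and Ppt1, a glucuronidase and a thioesterase of the lysosome, and Wdr45, a relative of the Wipi proteins. Median gene ranks of the 125 genes, with those lacking a peak in last place, were 26.9, 28.9, 25.8 and 25.6. The 35 genes of the lysosomal membrane and of acidification, among them the subunits of the proton pump, had medians of 18.1, 17.6, 19.5 and 19.6, the nearest to the top of the 5 lists except in P0.5 fibers, where the receptors of selective autophagy stood nearer. The 39 lysosomal hydrolases stood furthest from it, with 35.0, 38.6, 30.7 and 38.0. Medians were 27.3, 25.98, 23.4 and 23.5 for 20 genes of regulation and nucleation, 20.8, 25.5, 23.8 and 17.8 for 15 receptors of selective autophagy, and 29.3, 30.5, 27.2 and 27.7 for 16 genes of fusion with the lysosome.

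Of the 125 genes, 0 moved in E14.5 fibers against epithelium. In P0.5 fibers against epithelium 8 were higher and 8 lower, in P0.5 against E14.5 epithelium 6 and 1, and in P0.5 against E14.5 fibers 3 and 4, to be read beside the shares of all genes given for the members. The widest spreads were those of Tfe3, the relative of Tfeb (15.1, 29.3, 23.8 and 40.9), Prkaa2, a catalytic subunit of AMPK (45.1, 27.8, 23.0 and 21.3), Retreg1, a receptor for the endoplasmic reticulum (41.1, 39.7, 12.9 and 47.8), and Nbr1, a relative of Sqstm1 (10.7, 3.51, 28.7 and 17.8). Among fusion genes they were the tethering subunits Vps41 (44.3, 48.9, 29.7 and 61.6) and Vps33a (37.3, 42.0, 56.2 and 27.7). Among lysosomal genes they were the dipeptidyl peptidase Ctsc (48.8, 55.97, 26.7 and 35.3), the sialic acid exporter Slc17a5 (18.3, 21.9, 12.3 and 40.9) and the proton pump subunit Atp6v0c (23.5, 10.02, 36.3 and 21.3). Retreg1, Vps41, Slc17a5 and Ctsc stood nearest the top in P0.5 epithelium. Vps33a, as Lamp1, was nearest in P0.5 fibers and furthest in P0.5 epithelium.

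As a yardstick from the tissue itself, the fiber markers had median gene ranks of 44.2, 15.9, 51.5 and 21.1, and thus stood nearer the top in fibers at both stages. Crybb1, a fiber crystallin, stood at 42.8, 3.25, 65.1 and 11.9. The epithelial markers had medians of 26.7, 33.6, 25.4 and 29.0. At E14.5 they did not move together. Foxe3 (21.3 against 40.9) and Cdh1 (56.5 against 57.7) stood nearer the top in epithelium, and Pax6 (18.9 against 3.16) and Pdgfra (32.1 against 26.4) in fibers. At P0.5 all 4 stood nearer the top in epithelium, by small differences. The values were 22.0 against 27.7 in Foxe3, 18.7 against 19.6 in Pax6, 58.45 against 58.58 in Cdh1 and 28.7 against 30.2 in Pdgfra. The difference of Lamp1 at P0.5 was smaller than that of Crybb1 and larger than those of the other 5 fiber markers. At E14.5 no member differed by as much as the fiber markers did in the median.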

How the data were processed

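ATAC-seq was performed on 8 libraries, 2 for each of 4 groups. Per the submitters' notes, reads were trimmed with Trim Galore 0.4.1, aligned to mm10 (GRCm38) with Bowtie2 2.3.3.1 and handled with SAMtools 1.2 and Picard 2.1.1. Peaks were called with MACS2 2.1 at a q value of 0.05 on the 2 libraries of a group together. The deposited lists give for each peak its fold enrichment over background as a ratio, and its −log10 p-value and −log10 q-value. Within a list each fold value went with a single q-value. The integer score column was not used, and 0 columns of per-sample values were left out. Peak names in 2 lists say P1 where the sample labels say P0.5; the labels were followed.

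Promoters were defined within 2 kb of the starts of 39650 curated RefSeq transcripts (GRCm38.p6) on 21 chromosomes, and a peak was assigned with an overlap of at least 1 bp. Gene body peaks of the 4 lists were merged within 10 bp. Gene rank, widest peak and calls at 20 points and 2-fold were computed with python 3.11.15, pandas 2.3.3, numpy 2.4.6, pysam 0.24.0 and samtools 1.23.1 and drawn with matplotlib 3.10.9. The steps were tested on simulated data. With 1 pooled list a group, no spread, interval or p-value was given, and the depth of the libraries was not used. Alternatives were q under 0.001, equal numbers of peaks, other windows and thresholds, order by q and the summit in the window. The members and gene lists were chosen with earlier results of these data known. Every member could be named. Of each of the 5 other lists, the genes lacking a promoter peak in some list and the 2 with the widest spread were named, and of gene body regions the 3 with the highest rank in each comparison and direction. All markers could be named. Results of 2 markers and of 1 lysosomal gene are not reported here. Promoter sequences of Atg3 and Atg5 were chosen after their values were seen.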

Additional observations from a re-analysis of the deposited data

Results flagged for a closer look

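Atg4c, a protease that processes Atg8 proteins, differed between fibers and epithelium in opposite directions at the 2 stages. Fibers minus epithelium was −5.74 points of gene rank at E14.5 and 21.7 points at P0.5, which are 27.5 points apart. The difference was not tested, because each group had a single pooled list. At E14.5 it lay inside the 5th to 95th percentiles of all genes (−10.2 to 11.6). In P0.5 fibers Atg4c shared its gene rank of 51.4 with Atg7 and Lamp2. Lamp2, Pik3c3, Atg4a and Atg4b, among others, changed direction between stages in the same way.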

How the results depend on the processing

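No paired analysis was possible because the pooled lists hold no values of single libraries, and for the same reason no library could be left out. Of the recomputed values, 102 lay within 1.5 times the reported ones and 30 did not, which are given here. Order by q value, q under 0.001 and equal numbers of peaks left the gene ranks of members with a promoter peak as they were by construction and say nothing of the stability of the moves. With a shift of 10 points, the members higher and lower were 2 and 1 in E14.5 fibers against epithelium, 9 and 9 at P0.5, 2 and 8 in P0.5 against E14.5 epithelium, and 4 and 6 in fibers. The shares of all genes were 3.71 and 4.89%, 15.7 and 12.7%, 9.37 and 8.53%, and 13.4 and 9.15%. With 30 points, they were 1 and 0 in P0.5 fibers against epithelium, and 0 were higher in P0.5 against E14.5 epithelium (0.571, 0.819 and 0.262% of all genes). With a window of 1 kb, or the summit in the window, 0 were lower in either comparison of stages, since Atg9b dropped out. At 1.5-fold, 5 members were wider in E14.5 fibers, 1 was wider and 7 narrower in P0.5 fibers, and 14 (epithelium) and 30 (fibers) were narrower at P0.5 than at E14.5, with 26.4, 5.94, 28.6, 37.9 and 82.7% of all genes in that order. At 3-fold, 0, 2 and 8 were narrower in these last 3 comparisons, with 5.16, 5.90 and 29.3% of all genes. Members with a gene body peak numbered 13 in P0.5 fibers with q under 0.001, and with equal numbers of peaks 15 in E14.5 epithelium and 20 (from 28) in E14.5 fibers. In 200 bp around the promoter summit, CACGTG was found for 2 members in P0.5 epithelium and 4 in each other list (8.02, 7.65, 7.62 and 7.46% of all genes with a promoter peak, in the order of the report), and TCACGTGA for 2 (Atg3 and Lamp1) in each list. Which peaks are missing at P0.5 through fewer reads was not tested.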

Other observations

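Letters of other elements were rare in the 35 member promoters. The cAMP response element TGACGTCA was in 2 (5.71%, against 2.304% of all promoters), those of Atg16l2 and Atg5. The Ets letters CCGGAAG were in 3 (8.57%, against 11.9%), those of Atg101, Atg3 and Gabarapl2. TGCTGA was in 4 (11.4%, against 18.1%), those of Atg13, Lamp2, Optn and Wipi1, and the FoxO letters GTAAACA were in 0 (against 2.90%). Both strands were searched. In gene body regions, CACGTG was in 19 of 302 (6.29%, against 4.25% of regions in all genes).

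Gene body regions in all 4 lists were found in Atg2b, Tfeb, Pik3c3, Atg9b, Atg7, Atg16l2 and Uvrag. That of Atg16l2 lay in a coding exon (chr7:101296424-101297339).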
